A study of Mus musculus with 10 samples.

Results

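CD8 T cells that overexpressed NFAT5 inside a tumour were compared, gene by gene, with cells that carried the eGFP vector alone. The comparison rests on the NFAT5 libraries numbered 1, 5 and 8 and on the eGFP control libraries numbered 3 and 6, which are 5 of the 10 libraries of the series. They were chosen by their labels, except that eGFP control 7 was left out for its depth of 51112 estimated reads. All cells carried a transgenic T cell receptor for P1A, an antigen of the P511 mastocytoma. They were activated for 24 h in culture, transduced with a retrovirus, given 24 h later to Rag1-/- B10D2 mice bearing P511 tumours, and sorted as CD8 cells from the tumours 7 days after transfer. Hosts without Rag1 lack T and B cells of their own and keep myeloid cells. In the 3 libraries labelled CA-RIT NFAT1, numbered 2, 4 and 9, the vector carried an NFAT1 that is constitutively active and cannot pair with AP-1. They entered the fit to estimate the spread and are shown beside the comparison. The strain is labelled C57BL/6 throughout, which differs from the B10D2 recipients. How many mice were used, whether they were pooled, their ages, the promoter of the vector and the fraction of sorted cells it had reached: none of this is given in the sources used here. The p-values therefore reflect the spread between libraries, which may be technical.

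NFAT5, also called TonEBP, is a member of the Rel and NFAT family of transcription factors. It is best known for switching on osmoprotective genes when salt concentration rises, among them aldose reductase and the transporters of inositol and taurine. Unlike the calcium-regulated members NFATc1 to NFATc4, it does not depend on calcineurin. In tumours, CD8 T cells that meet antigen for long become exhausted: they keep inhibitory receptors such as PD-1 at high levels, and their cytokine output and killing decline. The calcium-regulated NFAT proteins take part in that state when they act without AP-1.

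The NFAT5 libraries held 18813321 to 24857984 estimated reads, eGFP control 3 held 36626336 and eGFP control 6 held 24778112. The controls did not resemble each other closely. eGFP control 3 held reads for 13186 genes, against 16051 in eGFP control 6 and 15276 to 16476 in the NFAT5 libraries. Of 8129 genes with at least 5 CPM (counts of a gene scaled to the library total) in each of the other deep T cell libraries, 260 (3.2%) had 0 reads in eGFP control 3. Across genes its log2 levels correlated with those of the other 7 fitted libraries at r = 0.717 to 0.794, while those 7 correlated with each other at 0.896 to 0.967. The controls differed from each other by at least 2-fold in 2800 of the 8022 genes that averaged 10 CPM or more (34.9%), so fold changes against eGFP control 6 alone are given beside those against both. CD8 T cell identity was present in all 5 libraries: Cd8a ran from 585 to 988 CPM, Cd3e from 623 to 989 CPM and Trbc2 from 15593 to 25613 CPM.

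Nfat5 itself (ENSMUSG00000003847, GRCm38 chr8:107293470-107379517, plus strand) was the check of the labels. It reached 87, 81.6 and 48.0 CPM in the NFAT5 libraries, against 1.12 CPM in eGFP control 3 and 6.88 CPM in eGFP control 6. Every NFAT5 library stood above both controls, while the CA-RIT NFAT1 libraries lay at 10.7, 4.7 and 3.01 CPM. The log2 fold change was 4.11 ± 0.89 (SE) and did not pass edgeR's quasi-likelihood test after Benjamini-Hochberg adjustment (adjusted p = 0.654), whereas DESeq2 on the same 8 libraries gave an adjusted p of 6.22e-05. Against eGFP control 6 alone it was 3.36 ± 0.76. With 3 libraries against 2, an exact permutation test whose two-sided p is double the smaller one-sided p cannot go below 0.2, which is the value Nfat5 gave.

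The additional Nfat5 reads fell mainly on a single transcript model. Nfat5-211, a protein-coding model of 4982 bases, took 87% (95% Wilson interval 85.5 to 88.4%) of the gene's 2158 reads in NFAT5 library 1, 84.1% (82.1 to 85.8%) of 1530 in library 5 and 71.8% (69.0 to 74.3%) of 1098 in library 8. Neither control had a read assigned to it, of 41 and 170 reads on the gene. Nfat5-207, a protein-coding model of 432 bases, took 2.78%, 9.87% and 11.8% of the gene's reads in the NFAT5 libraries and none in the controls. Reads of the vector and of the endogenous gene cannot be told apart in these files, and the intervals cover counting error only.

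No other gene passed edgeR's test either. Over the 8 fitted libraries 0 of 14473 genes were called at an adjusted p below 0.05 (0.0%), with a smallest adjusted p of 0.285, and 1051 genes had an unadjusted p below 0.05, 471 of them higher and 580 lower with NFAT5. With eGFP control 6 as the only control 0 of 15766 genes were called (0.0%), and 529 had an unadjusted p below 0.05. The count depends on eGFP control 6: without that library, when the spread of the lone control was taken from the other groups, edgeR called 2471 genes higher (15.4%) and 823 lower (5.14%) against eGFP control 3. DESeq2 called 73 of 13276 genes higher (0.55%) and 29 lower (0.218%) over 8 libraries. Of its 73 higher calls, 34 had 0 reads in both controls. With eGFP control 6 alone it called 33 of 15136 genes higher (0.218%) and 6 lower (0.0396%), and 19 genes were called in both fits in the same direction, 15 higher and 4 lower.

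Because the test called so little, genes were described by whether the libraries of the groups overlapped. Among the 8022 genes that averaged 10 CPM or more over the 5 libraries, all NFAT5 libraries stood above both controls for 1200 (15%) and below both for 727 (9.06%). When CPM were scaled by TMM, the split was 919 above and 962 below, so the balance of directions depends on the scaling. Against eGFP control 3 alone, the NFAT5 mean was at least 2-fold higher for 2199 genes and at least 2-fold lower for 626, on the log2(CPM + 1) scale. Against eGFP control 6 alone these numbers were 143 and 130. Only 64 genes were at least 2-fold higher than each control and 58 at least 2-fold lower, and 44 lay on opposite sides of the controls.

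**Figure D1:**
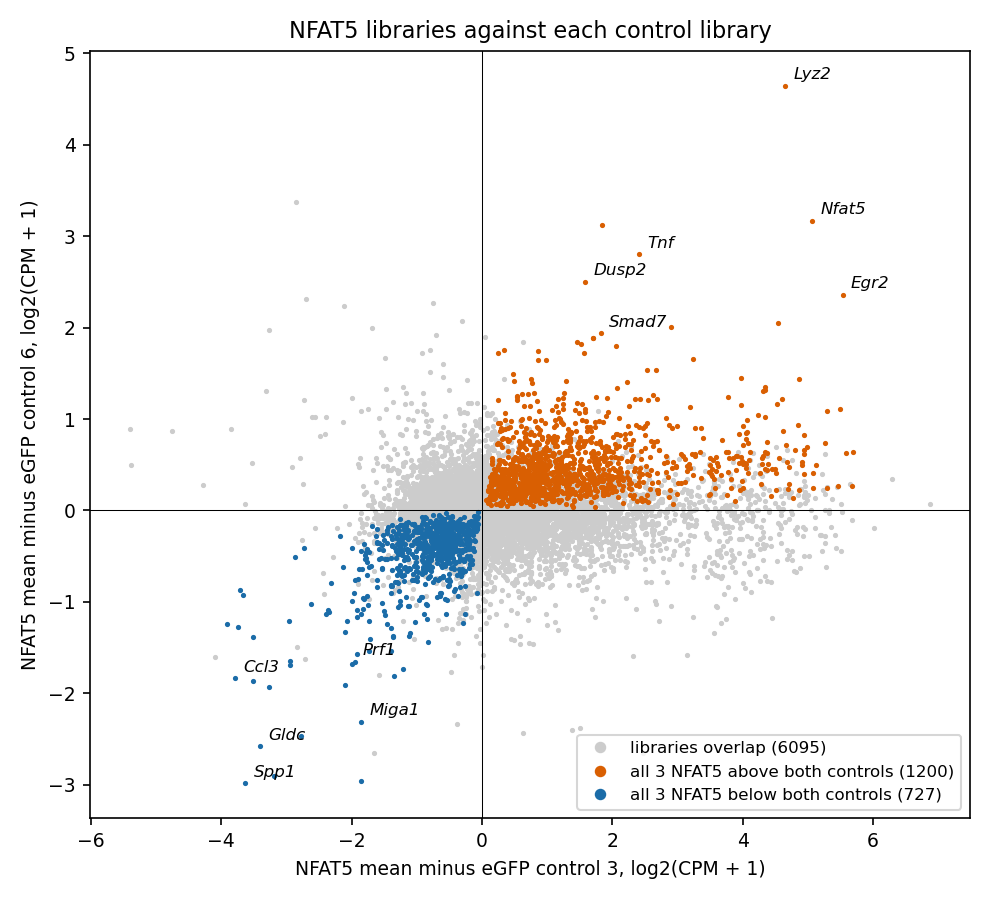
Each point is one of the 8022 genes that averaged 10 CPM or more. The x axis is the mean of the 3 NFAT5 libraries minus eGFP control 3 and the y axis the same minus eGFP control 6, both in log2(CPM + 1). Orange genes (1200) have all NFAT5 libraries above both controls, blue genes (727) below both, and the wider spread along x than along y shows how much farther eGFP control 3 stood from the NFAT5 libraries.

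The genes farthest from both controls were ranked by the smaller of their differences from the controls, 15 in each direction. On the higher side were Lyz2, Nfat5, Tnf, Egr2, Iqgap3, Zc3h12a, Rsad2, Smad7, AC137853.2, Per1, Tgif1, Zfp36l2, Dusp2, Nr4a3 and Ass1. The lower side held Spp1, Slc17a6, Gldc, Gm8818, Epdr1, Serpine2, Ociad2, Miga1, Gm42031, Ccl3, Srxn1, Il10, Prf1, Eno3 and Ugt1a7c. DESeq2 called 12 of the 15 higher genes and 3 of the 15 lower ones, Miga1, Ccl3 and Gm42031, beside 0.55% and 0.218% of all genes. The ranks were taken from the same libraries as these calls, so the calls are no separate support for the ranked genes. The smaller difference ran from 4.65 (Lyz2) to 1.54 (Ass1) on the higher side and from -2.98 (Spp1) to -1.57 (Ugt1a7c) on the lower side. Just outside the ranks stood Kif16b at 1.53 and Gfi1 at -1.54.

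**Figure D2:**
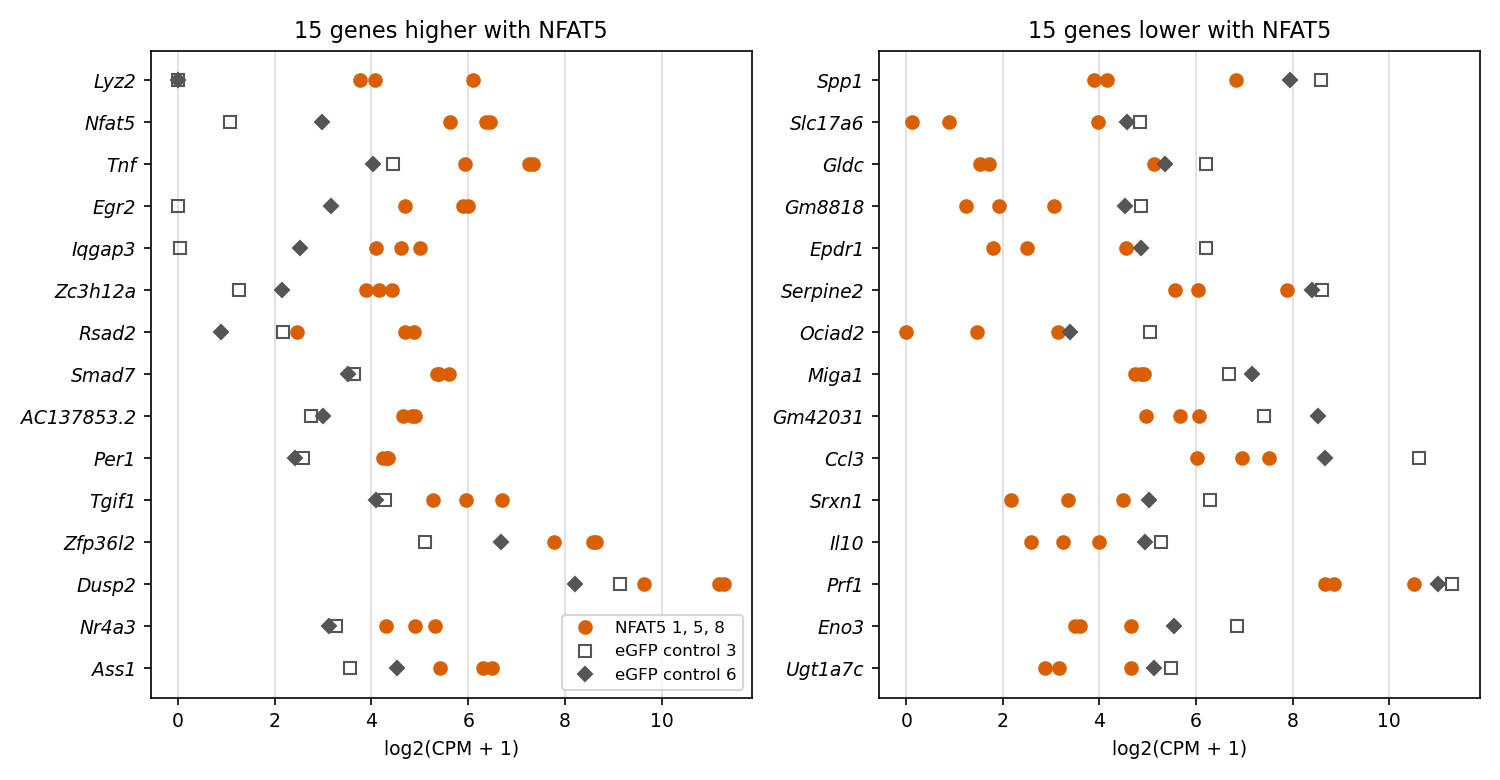
Levels of the 15 higher and 15 lower genes in log2(CPM + 1), 1 point per library: NFAT5 1, 5 and 8 in orange, eGFP control 3 as open squares and eGFP control 6 as filled diamonds. The NFAT5 points of Smad7, Per1 and Miga1 lie close together, while those of Spp1, Gldc and Serpine2 spread, with 1 NFAT5 library nearer to the controls.

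The promoters of 4 genes are shown because the results below turn on them, the cytokine gene Tnf and the receptor-induced factor gene Egr2 from the higher side, and the chemokine gene Ccl3 and the perforin gene Prf1 from the lower side. Each window runs from 250 bases before to 50 bases after the RefSeq start site on GRCm38.p6, 5′ to 3′ on the gene's strand, and capitals mark GGAAA or its complement TTTCC, the core that NFAT proteins read. The Tnf window is chr17:35201958-35202257 (minus strand), and its matches begin 181, 77 and 54 bases before the start. The Egr2 window is chr10:67537316-67537615 (plus strand), which of the 5 listed for that gene is the one with the most matches, 3 against 0 or 1 in the others. The Ccl3 window is chr11:83649329-83649628 (minus strand) and the Prf1 window chr10:61297586-61297885 (plus strand).
Tnf: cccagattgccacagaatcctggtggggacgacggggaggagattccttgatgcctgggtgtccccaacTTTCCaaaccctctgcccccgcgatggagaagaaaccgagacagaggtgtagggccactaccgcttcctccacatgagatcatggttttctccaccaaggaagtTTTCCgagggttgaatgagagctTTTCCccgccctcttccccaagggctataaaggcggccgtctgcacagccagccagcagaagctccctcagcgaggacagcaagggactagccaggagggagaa
Egr2: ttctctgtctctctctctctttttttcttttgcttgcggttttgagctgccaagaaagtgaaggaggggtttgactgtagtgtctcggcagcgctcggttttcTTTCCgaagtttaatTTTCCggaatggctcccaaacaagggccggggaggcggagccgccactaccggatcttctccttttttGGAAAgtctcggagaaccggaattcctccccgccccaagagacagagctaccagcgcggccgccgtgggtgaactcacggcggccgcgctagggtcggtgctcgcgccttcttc
Ccl3: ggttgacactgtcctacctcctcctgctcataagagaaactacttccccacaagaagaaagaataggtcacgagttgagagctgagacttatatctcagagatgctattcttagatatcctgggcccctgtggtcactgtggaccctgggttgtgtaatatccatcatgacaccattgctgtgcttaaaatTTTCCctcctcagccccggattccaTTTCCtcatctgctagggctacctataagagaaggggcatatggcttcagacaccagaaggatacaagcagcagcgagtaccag
Prf1: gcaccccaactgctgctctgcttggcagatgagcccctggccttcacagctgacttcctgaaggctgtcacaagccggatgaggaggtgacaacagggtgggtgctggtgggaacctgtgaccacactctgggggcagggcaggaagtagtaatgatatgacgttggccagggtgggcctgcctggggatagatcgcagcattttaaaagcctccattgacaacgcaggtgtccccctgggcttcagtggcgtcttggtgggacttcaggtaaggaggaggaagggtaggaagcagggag

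The core occurs in 61.3% of all 32851 such windows. Of the 15 higher genes 12 matched 21 windows, some overlapping, and 11 of these windows (52.4%) held it. Of the 15 lower genes 12 matched 14 windows, and 10 (71.4%) held it. The longer form TGGAAA, on either strand, which is the heart of the osmotic response element of NFAT5 and contains the shorter core, was in 2 of the 21 windows, in 3 of the 14 and in 21.4% of all windows. The windows of Tnf and Egr2 printed above each hold it once, the other 4 Egr2 windows do not, and neither do those of Ccl3 and Prf1. A match is a description of letters and not a binding site.

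Among the 15 higher genes were some that T cell receptor signals induce. Tnf, a cytokine of activated T cells and also a listed target of NFAT5 under osmotic stress, stood at 60.2, 151 and 162 CPM with NFAT5 and at 20.7 and 15.4 CPM in the controls. Its log2 fold change was 2.68 ± 0.78, and 3.00 ± 1.05 against eGFP control 6 alone. Egr2, a zinc-finger factor of anergy and exhaustion, was at 24.9, 58.6 and 63.2 CPM against 0 CPM in eGFP control 3 and 8.01 CPM in eGFP control 6. Dusp2, a nuclear phosphatase that switches off MAP kinases, reached 797, 2509 and 2338 CPM against 559 and 294 CPM (2.03 ± 0.60; 2.66 ± 0.74 against eGFP control 6 alone). In each of these genes NFAT5 library 1 was the lowest of the NFAT5 libraries and still stood above both controls.

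Dusp5, a phosphatase specific for nuclear ERK, was named as a member of its list that stood above both controls. It was at 477, 583 and 599 CPM against 191 and 155 CPM. Its log2 fold change was 1.57 ± 0.35 over 8 libraries and 1.81 ± 0.45 against eGFP control 6 alone. AC137853.2, an RNA annotated on the strand opposite Dusp5 and overlapping it, was at 24.3, 29 and 27.6 CPM against 5.7 and 7.04 CPM. The strandedness of the libraries is not given in the sources used here, so reads of the pair may not be separable. Of the 18 tested members of the list of dual-specificity phosphatase and Sprouty feedback, 13 reached 10 CPM. Dusp2, Dusp5 and Dusp10 stood above both controls, and Gem and Dusp1 below both, which is 3 and 2 of 13 beside 15% and 9.06% of all genes. The list's median log2 fold change was 0.45, against 0.08 over all genes tested, and 0.12 against eGFP control 6 alone, where all genes had a median of 0.05.

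Among the exhaustion transcription factors, the orphan receptor Nr4a3 was at 38.9, 18.8 and 29 CPM against 8.68 and 7.73 CPM (1.70 ± 0.40, DESeq2 adjusted p = 0.012; 1.87 ± 0.49 and 0.0381 against eGFP control 6 alone). Nr4a1, its close relative, was at 305, 406 and 478 CPM against 214 and 116 CPM. Nr4a2 and Bhlhe40 also stood above both controls, and Batf and Id2 stood below both. That makes 4 higher and 2 lower of 13 at 10 CPM, beside 15% and 9.06% of all genes. Tox, the factor that maintains the exhausted state, overlapped: 229, 89.5 and 107 CPM with NFAT5, 99.4 and 194 CPM in the controls. The list's median was 0.23, and 0.14 against eGFP control 6 alone.

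The list of AP-1 and EGR factors, which also held the early response genes Ier5 and Ier3, split likewise. Egr2, Egr1, Junb and Ier5 stood above both controls and Batf and Ier3 below both, of 16 at 10 CPM. The shares over all genes were 15% above and 9.06% below. Egr1, an immediate early gene, was at 712, 1096 and 873 CPM against 260 and 372 CPM. The median of the 21 tested was 0.15, and 0.20 against eGFP control 6 alone. Without NFAT5 library 1 it was -0.23.

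Genes that limit cytokine messages or signals lay on both sides, beside 15% of all genes above and 9.06% below both controls. Of 9 RNA decay factors at 10 CPM, Zc3h12a and Zfp36l2 stood above both controls and Btg2 below both, with a median of 0.24 over the 12 tested. Of 16 NF-kB subunits and inhibitors, Tnfaip3 and Nfkb1 stood above both and Bcl3 and Birc3 below both, with a median of -0.19. Zc3h12a, which encodes the RNA-cleaving enzyme Regnase-1, was at 16.9, 13.8 and 20.6 CPM against 1.4 and 3.44 CPM (2.74 ± 0.68; 2.28 ± 0.72 against eGFP control 6 alone). Zfp36l2, an RNA-binding protein that promotes decay of AU-rich messages, was at 219, 401 and 383 CPM against 33.5 and 102 CPM (2.24 ± 0.59; 1.70 ± 0.60 against eGFP control 6 alone). Tnfaip3, which encodes the NF-kB inhibitor A20, was at 509, 336 and 336 CPM against 172 and 165 CPM. For Zc3h12a, Zfp36l2 and Tnfaip3 the lowest NFAT5 library stood above the higher control, and edgeR called none of them.

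Members of the TGF-beta pathway lay mostly on the higher side. TGF-beta restrains cytotoxic T cells, and its receptors signal through SMAD3 and SMAD4, with SMAD7, TGIF1 and SKIL as brakes. Of 8 members at 10 CPM, 5 stood above both controls and 0 below, beside 15% and 9.06% of all genes. The 5 were Smad7, Tgif1, Smad3, Smad4 and Skil. All but Smad4 and Skil had a gap of at least 0.5 in log2(CPM + 1) between the nearest libraries, beside 157 of all 1200 genes above both controls. Smad7 was at 39.7, 47.4 and 41.1 CPM against 11.4 and 10.4 CPM (1.87 ± 0.47; 2.02 ± 0.59 against eGFP control 6 alone). DESeq2 called it over 8 libraries (adjusted p = 0.0269) and not with eGFP control 6 alone (0.0836). Tgif1 was at 37.7, 61.4 and 103 CPM against 18.5 and 16.1 CPM (1.86 ± 0.44; 2.05 ± 0.57 against eGFP control 6 alone). Smad3 was at 69.6, 34.5 and 32 CPM against 7.12 and 17.7 CPM. The median of the 13 tested members was 1.18 and dropped to 0.52 against eGFP control 6 alone. The gene of the ligand, Tgfb1, in the cytokine list, was at 120, 163 and 189 CPM against 14.3 and 99.1 CPM.

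Killing genes lay on the other side. Of 17 cytotoxic effector genes at 10 CPM, 10 stood below both controls and 0 above, beside 9.06% and 15% of all genes. Of the 10, 1 had a gap of at least 0.5 in log2(CPM + 1) between the nearest libraries, beside 56 of all 727 genes below both controls. Gzmb, the main granzyme that kills target cells, was at 3238, 1800 and 1927 CPM against 11470 CPM in eGFP control 3 and 4771 CPM in eGFP control 6 (-1.95 ± 0.43; -1.07 ± 0.33 against eGFP control 6 alone). DESeq2 gave an adjusted p of 0.00748 over 8 libraries and 0.422 with eGFP control 6 alone. Prf1, the pore-forming perforin that lets granzymes in, was at 1470, 465 and 408 CPM against 2539 and 2061 CPM. Klrd1 (CD94), a subunit of lectin-like receptors, was at 110, 94.5 and 52.3 CPM against 169 and 139 CPM. In contrast Gzma and Gzmk, named here after their values were seen, overlapped, at 755 to 1553 CPM against 2143 and 1200 CPM and at 673 to 781 CPM against 567 and 870 CPM. The list summed to 10737 to 11952 CPM with NFAT5, 29043 CPM in eGFP control 3 and 16178 CPM in eGFP control 6. Its median was -0.55, and -0.31 against eGFP control 6 alone. In such bulk libraries fewer cells of a type and less RNA per cell cannot be told apart.

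The chemokine genes Ccl3 and Ccl4, whose products attract other leukocytes, had wide gaps. Ccl3 was at 182, 122 and 64 CPM with NFAT5 against 1574 and 404 CPM (-3.16 ± 0.65), and Ccl4 at 288, 275 and 193 CPM against 2846 and 652 CPM (-2.94 ± 0.54). Against eGFP control 6 alone the differences were -1.75 ± 0.52 and -1.40 ± 0.26, so that eGFP control 3 carried much of the size. DESeq2 called Ccl4 in both fits (adjusted p = 0.000104 and 0.00437) and Ccl3 in the fit with both controls only (0.000707 and 0.192). With Ccl5, 3 of the 4 chemokine ligands at 10 CPM stood below both controls and 0 above, beside 9.06% and 15% of all genes. The median of the 9 tested was -1.47 and turned to 1.06 against eGFP control 6 alone, and 4 of the 11 listed ligands reached 10 CPM.

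The cytokines lay on both sides. Of 8 at 10 CPM, Tnf and Tgfb1 stood above both controls and Il10 and Ltb below both, beside 15% and 9.06% of all genes. Il10, an inhibitory cytokine, was at 14.9, 4.96 and 8.48 CPM against 37.6 and 29.8 CPM (-1.96 ± 0.57; -1.69 ± 0.62 against eGFP control 6 alone). Ifng, the interferon that T cells release on recognising a target, overlapped at 254, 387 and 362 CPM against 811 and 384 CPM. The median of the 14 tested was -0.50, and -0.22 against eGFP control 6 alone. Il2 stayed between 0 and 0.242 CPM and was not tested.

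Of 21 inhibitory receptors at 10 CPM, 6 stood below both controls and 0 above, beside 9.06% and 15% of all genes: Tnfrsf9, Havcr2, Entpd1, Cd160, Cd96 and Klrc1. None of the 6 had a gap of at least 0.5 in log2(CPM + 1) between the nearest libraries. Of all 727 genes below both controls 56 had one. Havcr2, which encodes TIM-3, a marker of terminal exhaustion, was at 201, 108 and 94.4 CPM against 261 and 297 CPM (-1.17 ± 0.34; -1.18 ± 0.40 against eGFP control 6 alone). Tnfrsf9 (4-1BB), a costimulatory receptor that exhausted cells also carry, was at 510, 181 and 170 CPM against 1322 and 551 CPM. The list's median was -0.73, and -0.36 against eGFP control 6 alone.

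The best-known receptors overlapped between the groups, and NFAT5 library 1 differed from libraries 5 and 8. Pdcd1, which encodes PD-1, was at 932 CPM in NFAT5 library 1, 204 CPM in library 5 and 266 CPM in library 8, against 773 and 671 CPM in the controls. Lag3 showed the same split, at 88.5, 24.5 and 24.0 CPM against 24.8 and 105 CPM. Ctla4 was at 209, 61.9 and 109 CPM against 291 and 116 CPM, and Tigit at 73.4, 46.1 and 44.1 CPM against 95.2 and 68.5 CPM. Without NFAT5 library 1, 13 inhibitory receptors rather than 6 stood below both controls. The number over all genes rose as well, from 727 to 1188, because fewer libraries were left to overlap.

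Among costimulatory molecules Tnfsf4, the OX40 ligand, was at 21.3, 17.6 and 23.3 CPM against 70.1 and 56.3 CPM (-1.72 ± 0.33; -1.46 ± 0.38 against eGFP control 6 alone). DESeq2 called it over 8 libraries (adjusted p = 0.00398) and not with eGFP control 6 alone (0.15). With Tnfrsf9, Slamf7 and Cd2, Tnfsf4 made 4 of 16 at 10 CPM below both controls, and Slamf1 stood above both. Over all genes 9.06% stood below both and 15% above. The median of the 21 tested was -0.44, and 0.02 against eGFP control 6 alone. The stem-like and memory genes, which mark cells able to renew the response, had 1 member above both controls (Zfp36l2) and 1 below (Myb) of 16. Tcf7, the factor that defines such cells, was at 154, 96.7 and 57.3 CPM against 0.219 and 74.7 CPM, and Il7r at 24.4, 7.25 and 4.46 CPM against 24.6 and 17.6 CPM. This list's median was 0.30, and -0.05 against eGFP control 6 alone.

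Cell cycle genes lay mostly above the controls. Of 32 genes of mitosis and G2/M, all of which reached 10 CPM, 22 stood above both controls and 0 below, beside 15% and 9.06% of all genes. With CPM scaled by TMM it was 19. Mki67, the proliferation marker, was at 214, 200 and 180 CPM against 72.9 and 101 CPM (1.09 ± 0.27; 0.94 ± 0.34 against eGFP control 6 alone). DESeq2 called it over 8 libraries (adjusted p = 0.0423) and not with eGFP control 6 alone (0.453). Top2a, the topoisomerase that untangles chromosomes, was at 405, 366 and 409 CPM against 82.8 and 238 CPM (1.22 ± 0.38; 0.70 ± 0.26 against eGFP control 6 alone). Cenpe, a kinetochore motor, was at 81.9, 76.6 and 99.4 CPM against 31.1 and 39.3 CPM, and Aspm, a spindle pole protein, at 23.7, 18.8 and 18.7 CPM against 2.44 and 7.85 CPM. Of the 22, 7 had a gap of at least 0.5 in log2(CPM + 1) between the nearest libraries of the groups. Of all 1200 genes above both controls 157 had one.

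The genes of DNA replication and G1/S behaved alike in count, with 16 of 30 above both controls and 0 below, beside 15% and 9.06% of all genes. Of the 16, 0 had a gap of at least 0.5, beside 157 of the 1200 genes above both controls. Mcm4, a subunit of the replicative helicase, was at 446, 578 and 544 CPM against 121 and 361 CPM, and E2f8, an S-phase repressor, at 67.5, 72.0 and 61.9 CPM against 7.01 and 43.9 CPM. Median log2 fold changes were 0.70 for mitosis and 0.56 for replication, and 0.44 and 0.29 against eGFP control 6 alone. Summed over members, the mitosis genes reached 4610, 5386 and 6362 CPM with NFAT5 and 2694 and 3786 CPM in the controls.

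**Figure D3:**
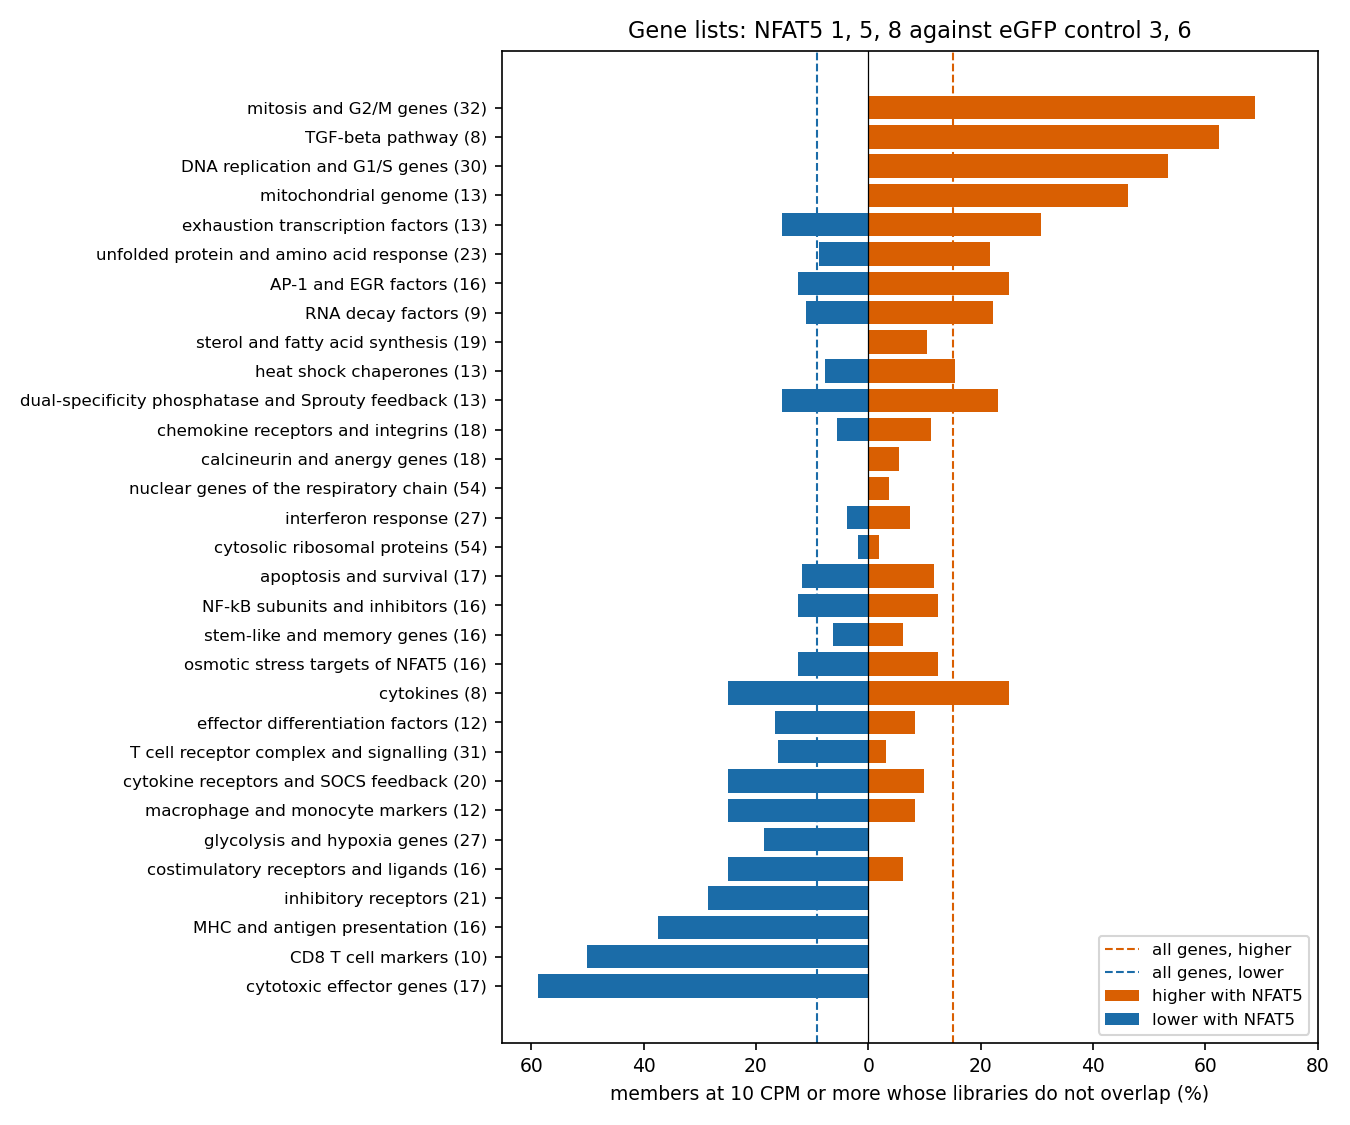
Share of members with a mean of at least 10 CPM (number in parentheses) whose NFAT5 libraries all stood above both controls (orange, to the right) or below both (blue, to the left), for the 31 lists with at least 8 such members. Dashed lines mark the shares over all genes, 15% and 9.06%. Mitosis, TGF-beta and replication genes extend farthest to the right and cytotoxic genes and CD8 T cell markers farthest to the left.

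Most genes of the metabolic lists overlapped, with shares that differed by list. Over all genes 15% stood above and 9.06% below both controls. Of 27 glycolysis and hypoxia genes at 10 CPM, 5 stood below both controls (Bnip3, Ankrd37, Pfkl, Pkm and Eno1) and 0 above, with a median of -0.38, and -0.29 against eGFP control 6 alone. Bnip3, a hypoxia-induced mitophagy receptor, was at 35.4, 17.4 and 18 CPM against 143 and 46.4 CPM. Eno3, the muscle-type enolase, which was among the 15 lower genes, was at 24.3, 10.2 and 11.1 CPM against 115 and 46 CPM. The nuclear genes of the respiratory chain had a median of -0.30 that turned to 0.20 against eGFP control 6 alone, with 2 of 54 above both controls. In the mitochondrial genome 6 of 13 genes stood above both controls and 0 below, with a median of -0.07, and 0.22 against eGFP control 6 alone.

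The osmotic targets of NFAT5 lay on both sides. Of 23 listed genes 22 were tested and 16 reached 10 CPM. Tnf and Slc38a2 stood above both controls, and S100a4 and Ltb below both, beside 15% and 9.06% of all genes. Akr1b3, the aldose reductase gene that makes the osmolyte sorbitol, was at 353, 449 and 493 CPM against 456 and 385 CPM. Slc6a6, the taurine transporter, was at 61.7, 31.2 and 43.6 CPM against 88.0 and 46.9 CPM, and Slc5a3, the inositol transporter, stayed at 0 to 2.43 CPM in all 5 libraries. Hspa4l, an osmotic stress chaperone, was at 36.2, 29 and 30.8 CPM against 21.1 and 32.8 CPM, and Sgk1, a salt-induced kinase, at 68.6, 70.0 and 56.6 CPM against 43.3 and 106 CPM. Slc38a2, an amino acid transporter induced by hypertonicity, was at 132, 165 and 148 CPM against 46.6 and 101 CPM. The list's median was 0.02, and -0.12 against eGFP control 6 alone, beside 0.08 and 0.05 over all genes.

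The calcium-regulated relatives overlapped between the groups. Nfatc1 was at 394, 184 and 192 CPM against 177 and 273 CPM, Nfatc2 at 70.0, 42.3 and 36.6 CPM against 4.0 and 47.3 CPM, and Nfatc3 at 186, 115 and 101 CPM against 32 and 116 CPM. In each of these genes NFAT5 library 1 was the highest of the NFAT5 libraries.

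Some genes with large differences belonged to no list. Miga1, a mitochondrial outer membrane protein that promotes fusion, gave the smallest p-value of all: 29.3, 28 and 25.7 CPM with NFAT5 against 102 and 141 CPM (-2.24 ± 0.28, edgeR adjusted p = 0.285; DESeq2 adjusted p = 4.8e-09, and 2.54e-06 with eGFP control 6 alone). Krtcap3 was at 4.31, 6.24 and 4.9 CPM with 0 reads in both controls, at least 35.5-fold higher in the lowest NFAT5 library against 3 reads in eGFP control 6. Per1, a component of the circadian clock, was at 19.2, 18.9 and 17.8 CPM against 5.04 and 4.33 CPM (1.88 ± 0.44; 2.08 ± 0.49 against eGFP control 6 alone). Ass1, the arginine-making argininosuccinate synthase, was at 41.5, 88.7 and 78.5 CPM against 10.7 and 22.1 CPM. Miga1 and Krtcap3 had like levels in the CA-RIT NFAT1 libraries, 17.6 to 29.6 CPM and 4.18 to 6.06 CPM, so that in these genes the controls stood apart from both other groups. Per1 and Ass1 also stood above both controls with CA-RIT NFAT1, at 11.8 to 20.4 CPM and at 29.7 to 65.4 CPM.

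On the lower side several genes followed the split within the NFAT5 group. Spp1, which encodes the secreted protein osteopontin, was at 113 CPM in NFAT5 library 1 and at 13.8 and 16.9 CPM in libraries 5 and 8, against 385 and 245 CPM. Gldc, the glycine decarboxylase gene, was at 33.9, 1.87 and 2.27 CPM against 72.4 and 40.2 CPM, and Serpine2, a secreted protease inhibitor, at 234, 46.6 and 64.5 CPM against 387 and 337 CPM. Slc17a6, a vesicular glutamate transporter, was at 14.6, 0.853 and 0.0874 CPM against 27.7 and 22.7 CPM. Srxn1, an antioxidant enzyme, was at 21.3, 3.52 and 9.18 CPM against 76.9 and 31.5 CPM. The genes Epdr1, Ociad2, Gm8818, Gm42031 and Ugt1a7c completed the lower ranks, with log2 fold changes from -2.87 ± 1.49 (Ociad2) to -1.73 ± 0.56 (Ugt1a7c). Gm8818 overlaps Lamc1 on the opposite strand.

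Markers of T cells and of other cells moved beside these results. Of 10 CD8 T cell markers, 5 stood below both controls and 0 above, beside 9.06% and 15% of all genes. The 5 were Cd3g, Trbc2, Cd3d, Cd2 and Trbc1. None of them had a gap of at least 0.5 in log2(CPM + 1) between the nearest libraries, beside 56 of all 727 genes below both controls. The list summed to 27253 to 28793 CPM with NFAT5 and to 42588 and 33751 CPM in eGFP controls 3 and 6. The median was -0.50, and -0.24 against eGFP control 6 alone. Trbc1 and Trbc2 are nearly identical, so their split is uncertain, as is that of the class I genes below. Of 16 MHC and antigen presentation genes at 10 CPM, 6 stood below both controls and 0 above, beside the same shares of all genes. H2-K1 was at 3409, 3167 and 2993 CPM against 5087 and 3903 CPM and H2-D1 at 8665, 8479 and 7527 CPM against 12036 and 9925 CPM. The median was -0.56, and -0.09 against eGFP control 6 alone.

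eGFP control 3 also carried the highest levels of class II genes. Cd74, the class II invariant chain, was at 565 CPM there, at 52.9 CPM in eGFP control 6 and at 90.5, 57.2 and 78.0 CPM with NFAT5, and H2-Ab1 was at 454 CPM there, at 90.3 CPM in eGFP control 6 and at 60 to 78.5 CPM with NFAT5. The dendritic cell markers summed to 1402 CPM in eGFP control 3, to 254 CPM in eGFP control 6 and to 225 to 327 CPM with NFAT5. Of the 14 markers 10 were tested and 5 reached 10 CPM. Of these 5, 1 stood below both controls and 0 above, beside 9.06% and 15% of all genes. Clec9a had 0 reads in all 5 libraries, while Cd209a, Siglech and Ccr9 were too low to be tested. The list's median of -2.33 was -0.01 against eGFP control 6 alone. The part of such cells in the results was not tested.

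The macrophage list summed to 1786 to 1988 CPM with NFAT5 and to 3005 and 2301 CPM in the controls. Of its 12 members at 10 CPM, 1 stood above both controls and 3 below, beside 15% and 9.06% of all genes. Its median was -0.66 and turned to 1.45 against eGFP control 6 alone. Lyz2, the lysozyme of macrophages and neutrophils, lay the other way: 12.6, 15.9 and 67.4 CPM with NFAT5 and 0 reads in both controls, at least 104-fold higher in the lowest NFAT5 library against 3 reads in eGFP control 6, and 12.2 to 53.7 CPM in the CA-RIT NFAT1 libraries. Mast cell and P511 markers summed to 616 to 661 CPM with NFAT5, 1484 CPM in eGFP control 3 and 550 CPM in eGFP control 6, with 11 of 16 tested, 1 of 5 above and 1 of 5 below both controls. The median was 0.18, and 1.38 against eGFP control 6 alone. Tpsb2, Tpsab1, Fcer1a and Ms4a2, which encode mast cell tryptases and subunits of the IgE receptor, had 0 reads in all 5 libraries. Cpa3, a mast cell protease, was at 37.5, 63.4 and 62.6 CPM against 66.1 and 11.8 CPM, and Trap1a, which encodes the P1A antigen itself, at 5.28, 10.2 and 5.55 CPM against 24.9 and 2.67 CPM. The part of these cells in the gene results was not tested.

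NFAT5 was also compared with CA-RIT NFAT1 directly. edgeR called 0 of 14473 genes between NFAT5 and CA-RIT NFAT1 (0.0%), and 163 had an unadjusted p below 0.05. In the same comparison DESeq2 called 1 of 14399 (0.00694%), Nfat5 itself (3.58 ± 0.66, adjusted p = 0.000846). Among the 1200 genes above both controls 4 had an unadjusted p below 0.05 in this comparison, and among the 727 below both, 18. Of the 15 higher genes only Nfat5 did, and of the 15 lower genes only Ugt1a7c. Ugt1a7c was at 24.0, 6.29 and 8.0 CPM with NFAT5 and 26.2 to 43.6 CPM with CA-RIT NFAT1, a log2 fold change of -1.41.

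The NFAT5 and CA-RIT NFAT1 libraries overlapped in some named genes and not in others. Among those that overlapped, Dusp2 was at 787, 1523 and 841 CPM with CA-RIT NFAT1, Smad7 at 42.2, 47.6 and 16.8 CPM and Gzmb at 3558, 2619 and 2144 CPM. Ccl4 did not overlap, at 423, 312 and 348 CPM with CA-RIT NFAT1 against 193 to 288 CPM with NFAT5 (-0.50 ± 0.48). Tnf was at 27.5, 132 and 37.7 CPM, with a difference of 0.93 ± 0.63 between NFAT5 and CA-RIT NFAT1, and Nr4a3 at 33.9, 45.4 and 39 CPM, with a difference of -0.44 ± 0.33. Tnfsf4 was apart, at 39, 46.0 and 71.5 CPM with CA-RIT NFAT1 against 17.6 to 23.3 CPM with NFAT5 (-1.32 ± 0.31, unadjusted p = 0.00241), and did not pass the adjustment. Havcr2 was at 292, 169 and 215 CPM with CA-RIT NFAT1, a difference of -0.73 ± 0.31. Several named differences were also seen between CA-RIT NFAT1 and the eGFP controls in the 8-library edgeR fit. The log2 fold changes there were -2.47 for Ccl3, -2.44 for Ccl4, -1.71 for Gzmb, 2.14 for Nr4a3 and 1.58 for Smad7. For Nfat5 and Tnfsf4 they were smaller, at 0.53 and -0.4. A p that misses the threshold does not show that the groups were alike.

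**Figure D4:**
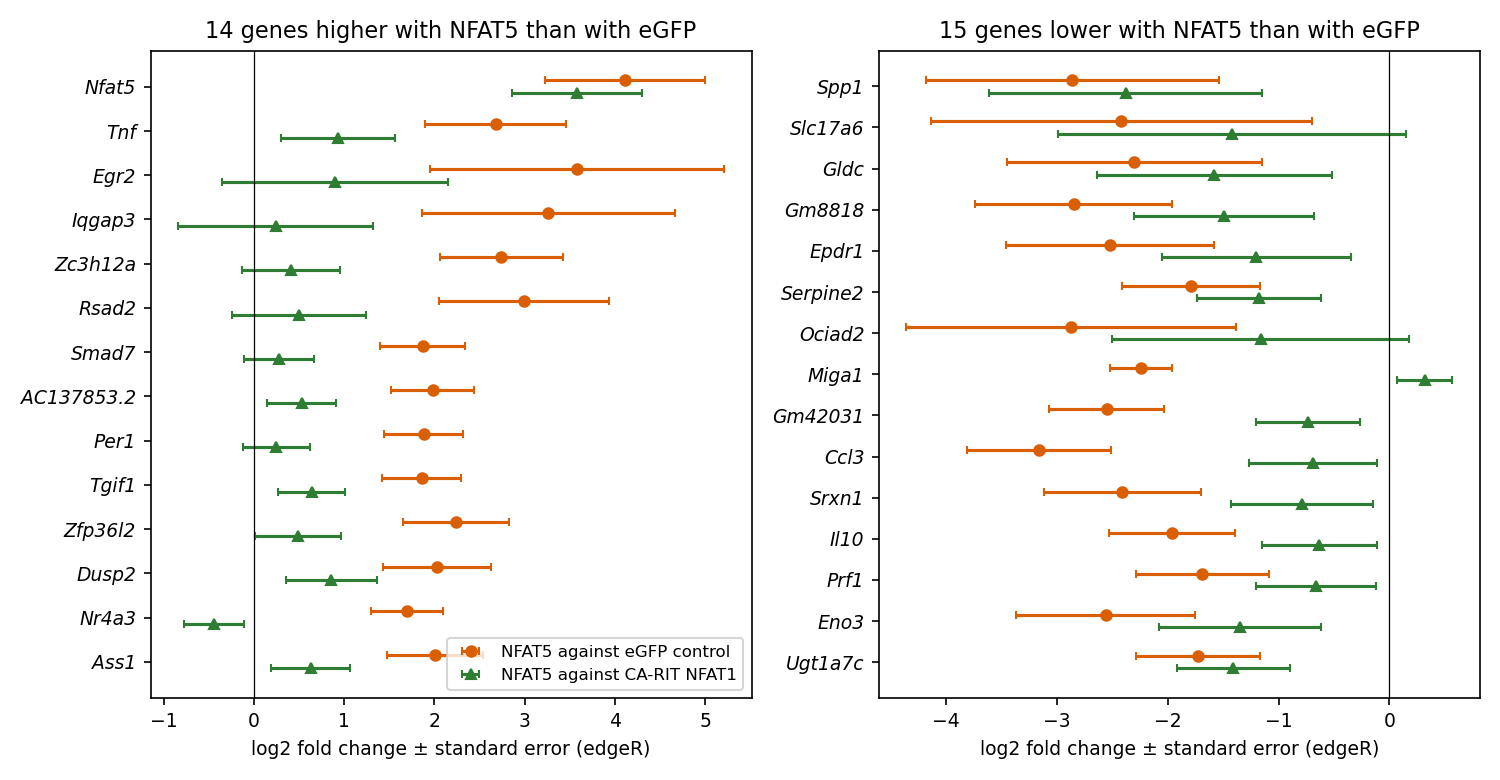
edgeR log2 fold changes with standard errors for 14 of the 15 higher genes (left) and the 15 lower genes (right), from the 8-library fit: NFAT5 against eGFP control as orange circles and NFAT5 against CA-RIT NFAT1 as green triangles. Lyz2 is left out because both controls had 0 reads. Nfat5 lies far from 0 in both comparisons (4.11 and 3.58), whereas Miga1 lies at -2.24 in the first and at 0.32 in the second.

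By list, the medians between NFAT5 and CA-RIT NFAT1 were -0.03 for cytotoxic genes, -0.31 for inhibitory receptors, 0.20 for the TGF-beta pathway, -0.09 for mitosis and 0.14 for replication, beside a median of 0 over all genes. The summed cytotoxic genes were at 14074, 11087 and 9784 CPM with CA-RIT NFAT1, around the NFAT5 range. The mitosis genes were at 4243, 6308 and 6457 CPM. CA-RIT NFAT1 library 2, like NFAT5 library 1, was the lowest of its group in mitosis genes and the highest in inhibitory receptors, at 4030 CPM against 2327 and 2805 CPM. For the inhibitory receptors, NFAT5 library 1 was at 3474 CPM and libraries 5 and 8 at 1923 and 1773 CPM.

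**Figure D5:**
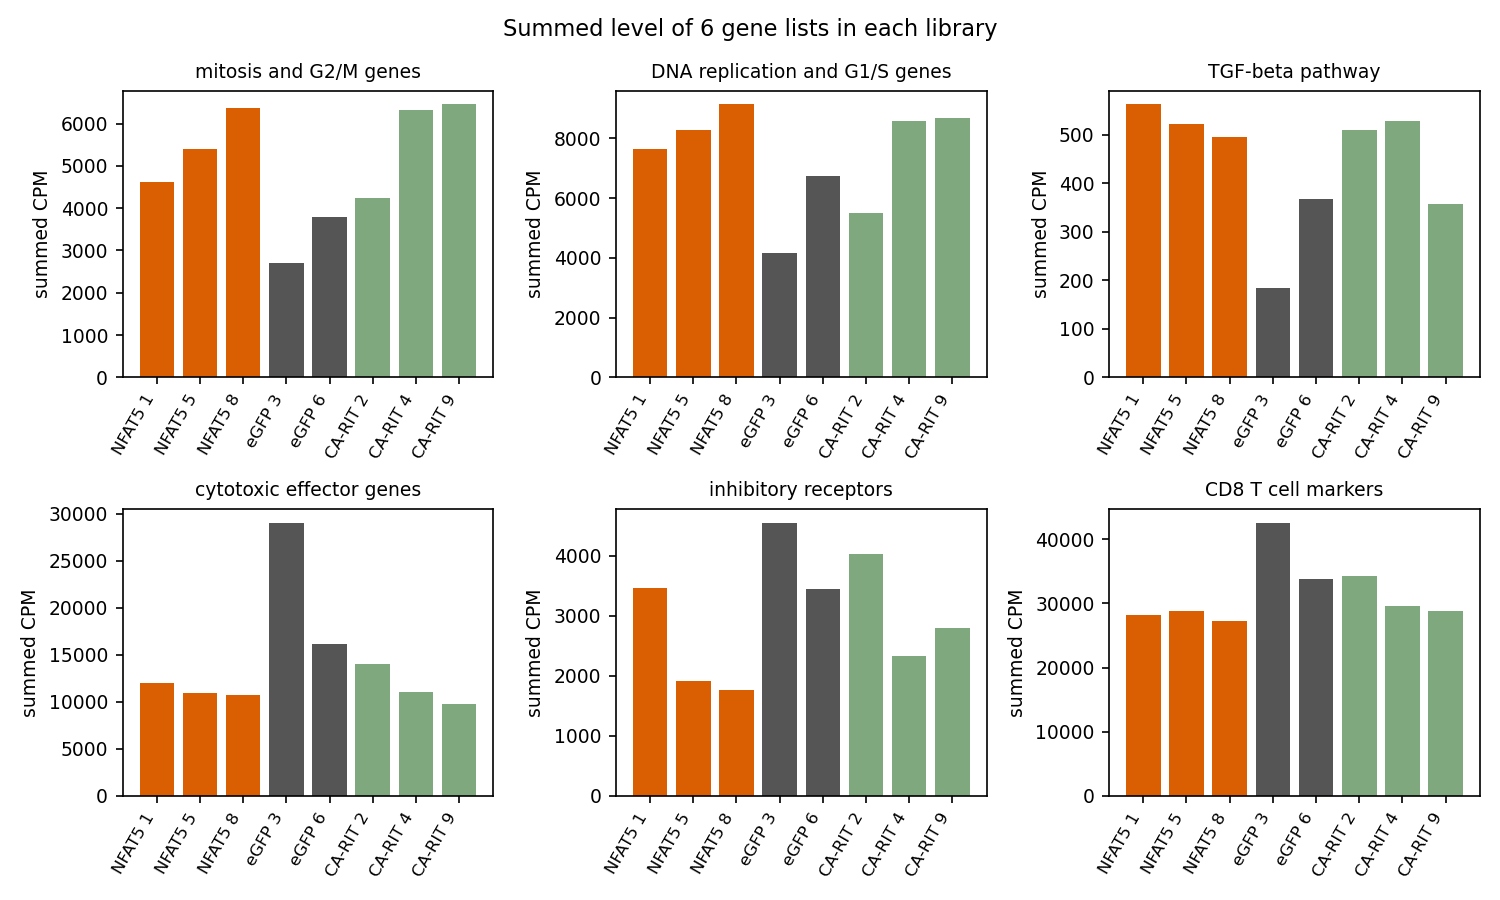
Summed CPM of the members of 6 lists in each of the 8 fitted libraries: NFAT5 in orange, eGFP control in dark grey, CA-RIT NFAT1 in green. The NFAT5 libraries lie between 10737 and 11952 CPM for cytotoxic genes, below both controls, and between 4610 and 6362 CPM for mitosis genes, above both.

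There were 19 other lists, the RNA decay and NF-kB lists among them. Among the 13 of them with at least 8 members at 10 CPM, 1 to 5 members stood above both controls and 0 to 5 below both. The shares over all genes were 15% and 9.06%. Medians of the 13 lists ran from -0.38 to 0.25.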

How the data were processed

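RNA of sorted tumour-infiltrating CD8 T cells was sequenced in 10 libraries. The submitters' processing notes name Salmon 0.14.1 and the builds GRCm38.p6 and mm10. Its options, the strand setting and any trimming: not given in the sources used here. The deposited estimated counts are Salmon's reads per transcript, per the file headers. The deposited TPM values, with the effective lengths that the authors deposited as another column, gave the average transcript length offsets of an alternative fit. GENCODE M21 assigned 139966 of the 140919 transcripts to genes; the other 953 held at most 0.292% of a library's reads. Estimated counts were summed per gene and rounded. CPM divide a gene's reads by all matched reads, and log2 levels use a pseudocount of 1 CPM.

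The main fit was edgeR 4.0.16 (R 4.3.3) by quasi-likelihood, scaled by TMM, after filterByExpr with its defaults, and Benjamini-Hochberg adjustment over all genes at 0.05. It held 8 libraries in 3 groups that share 1 estimate of spread, without eGFP control 7 and CA-RIT NFAT1 10. A fit of 7 libraries without eGFP control 3 gave the values against eGFP control 6 alone. The standard error of a fold change is its size over the root of its F statistic. Alternatives were DESeq2 1.42.0, limma 3.58.1 voom with quality weights, RLE scaling, other low-count filters, other sets of libraries, average transcript length offsets and each library left out. A gene's libraries do not overlap where all 3 NFAT5 libraries lie on 1 side of both controls, with a mean of at least 10 CPM over the 5.

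The comparison, the 41 gene lists and the genes named were chosen with earlier results of these data known. Named genes are Nfat5, the 15 in each direction with the largest smaller difference from the controls, up to 4 of each list in each direction that do not overlap, the 5 smallest p-values in each direction of both fits, and a fixed set of T cell, NFAT and contamination markers. Further members are named only to account for a count of a list. Replacing the fitted fold change of genes with 0 reads in both controls by a bound from 3 reads moved no median of a described list. Promoter windows come from RefSeq on GRCm38.p6.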

Additional observations from a re-analysis of the deposited data

Results flagged for a closer look

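CA-RIT NFAT1 library 10, which entered only the alternative fit with all 10 libraries, held marker levels above both controls used. Its mast cell and P511 tumour markers summed to 6176 CPM, against 1484 and 550 CPM in eGFP controls 3 and 6. Its macrophage and monocyte markers summed to 9975 CPM, against 3005 and 2301 CPM, and its dendritic cell markers to 5240 CPM, against 1402 and 254 CPM. Its CD8 T cell markers summed to 220 CPM, against 42588 and 33751 CPM.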

How the results depend on the processing

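Of 95 genes followed through the alternatives, 1419 of 1518 values kept their direction and their side of edgeR's threshold, 74 kept their direction and passed the threshold (25 under DESeq2 and 49 without eGFP control 6), and 25, of 13 genes, changed sign. The counts of genes called by edgeR, 0 higher and 0 lower, became 73 and 29 with DESeq2 over 8 libraries, 33 and 6 with DESeq2 and eGFP control 6 alone, and 1 and 0 with DESeq2 between NFAT5 and CA-RIT NFAT1. With each library left out in turn they ran from 0 to 2471 higher and from 0 to 823 lower, both maxima without eGFP control 6. Nfat5 passed with DESeq2 (4.11) and ran from 3.36 to 5.83 with a library left out. The 1200 genes above and 727 below both controls became 568 and 352 at a mean of at least 50 CPM, 157 and 56 with a gap of at least 0.5, and 1524 to 3795 and 938 to 2555 with a library left out, which leaves fewer libraries to overlap. With that gap the counts by list were 7 for mitosis, 0 for replication, 3 for TGF-beta, 1 for cytotoxic genes, 0 for inhibitory receptors and 0 for CD8 T cell markers, and with a library left out inhibitory receptors ran from 6 to 13 (highest without NFAT5 1) and CD8 T cell markers from 5 to 8 (highest without eGFP control 6). For the other settings the cause was not tested.

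List medians moved by more than the spread between libraries in 34 of 336 cases. They became -0.34 for dual-specificity phosphatases and -0.06 for cytokines with the stricter filter, -0.16 for cytokines with no filter, -0.18 for cytokines, 1.82 for TGF-beta and 1.56 for mast cell markers with limma voom, and -0.32 for cytotoxic genes, -0.24 for cytokines, 0.82 for replication, -0.38 for MHC and -0.12 for CD8 T cell markers with all 10 libraries. With a library left out, the extremes came without a control, except the lowest for stem-like genes and cytokines (without NFAT5 1), both for AP-1 and EGR factors (without NFAT5 1 and 5) and the lowest for mast cell markers (without NFAT5 8). Medians ran from -0.15 to 1.00 for stem-like genes, -0.23 to 0.33 for AP-1 and EGR factors, 0.12 to 0.64 for dual-specificity phosphatases, -0.66 to -0.31 for cytotoxic genes, -0.63 to 0.24 for cytokines, -1.91 to 1.06 for chemokine ligands, 0.52 to 1.87 for TGF-beta, 0.29 to 0.92 for replication, -0.68 to 0.20 for the respiratory chain, -0.85 to -0.09 for MHC, -0.75 to -0.24 for CD8 T cell markers, 0.14 to 1.91 for mast cell markers, -1.31 to 1.45 for macrophage markers and -3.15 to -0.01 for dendritic cell markers.

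Signs changed for Gzmk (0.00 with limma voom, 0.33 with 10 libraries), Nfatc1 (-0.10 with limma voom), Akr1b3 (0.08 with 10 libraries) and Cd3e (0.03 with limma voom, 0.32 with 10 libraries). With a library left out, the extremes came without a control, except the lowest for Lag3, Tox and Nfatc1 (without NFAT5 1). The ranges were -0.92 to 0.05 for Gzma, -0.27 to 0.21 for Gzmk, -1.45 to 0.70 for Lag3, -1.38 to 0.09 for Ctla4, -0.63 to 0.34 for Tox, -0.32 to 0.36 for Nfatc1, -0.24 to 0.14 for Akr1b3, -0.06 to 0.43 for Hspa4l, -0.73 to 0.42 for Sgk1, -0.26 to 0.27 for Cd3e, -0.44 to 2.19 for Cpa3, -1.99 to 1.37 for Trap1a and -3.08 to 0.48 for Cd74. No paired analysis was run. The numbers run over all libraries of the series, and the sample labels do not say whether libraries of different groups belong together. Each compared library held 18813321 reads or more, and the comparison rests on 3 libraries against 2 that differ from each other.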
